A study of Mus musculus with 18 samples.

Results

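The genes described here encode the nuclear subunits of the mitochondrial respiratory chain and of ATP synthase, together with the complex I assembly factors that share their names. Members were taken by symbol from the platform annotation: every gene whose symbol starts with Nduf, Uqcr, Cox4, Cox5, Cox6, Cox7, Cox8 or Atp5, and Sdha to Sdhd. Only probe sets with 1 symbol were used, and the brightest probe set stood for each gene, which gave 89 members of 19938 genes measured. They comprise 34 subunits of complex I (6 core and 28 accessory), 7 complex I assembly factors (Ndufaf1 to Ndufaf7), 4 subunits of complex II and 8 of complex III. Another 18 belong to complex IV, Ndufa4 included, 17 belong to ATP synthase, and 1 is the Ndufa4 paralog Ndufa4l2.

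Respiratory complexes I to IV pass electrons from NADH and succinate to oxygen, and all but complex II pump protons across the inner mitochondrial membrane. ATP synthase uses the proton gradient to make ATP. A few subunits are encoded in mitochondrial DNA, while the genes described here lie in the nucleus and their products are imported. Assembly factors help to build a complex without being part of the finished enzyme, and several subunits of complex IV exist as pairs of isoforms with different tissue distributions.

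The cells were wild type mouse embryonic fibroblasts, connective tissue cells grown out of C57BL/6 embryos at embryonic day 13. All groups had received 100 nM dexamethasone, a glucocorticoid drug used to bring the clocks of cultured cells into step, for 2 h. RNA was collected 22, 26, 30, 34, 40 and 46 h later, with 3 samples a time on 18 Affymetrix arrays, to follow transcripts over 1 circadian day. The labels trace the fibroblasts to 2 mice without saying which culture gave which array and describe the medium in more than one way, so limma's p-values reflect only the spread from array to array, which may be technical. No untreated cells are among the arrays, and the times cannot separate the clock from time since the hormone or time in culture.

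Array medians lay between 196 and 210 intensity units. Those of the 40 h and 46 h arrays (203.8 to 210.2) all lay above those of the earlier arrays (up to 202.2). The 3 arrays at each time limit the precision of every value below. Levels are log2(intensity + 16) after quantile normalization, and differences between times are log2 changes on that scale. Of 12 fibroblast markers, 10 lay at or above the median level of all genes (8.07), and all 4 endothelial and all 6 macrophage markers lay below it. Cd68, the brightest macrophage marker, also rounds to 8.07. All 5 adipocyte and all 5 epithelial markers lay below the median, as did 5 of 8 skeletal muscle, 3 of 5 cardiac and 4 of 5 germ cell markers. Acta1, a skeletal muscle marker, reached 9.49. Within times, 33.8% of the variance of all genes lay along 1 component, which is set against the members' values below. In such bulk samples fewer cells of a type and less RNA per cell cannot be told apart.

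Most members gave bright signals. Their median level was 10.36, and 57 of the 89 lay above 9.96, a level that 3988 of the 19938 genes reached. All 6 core complex I subunits did so, as did 14 of 17 ATP synthase subunits and 0 of 7 assembly factors. Brightness also depends on the probes, so no order of abundance between genes is drawn from it. The 9 members below the median level of all genes were Cox6a2, Cox6b2, Cox7a1, Cox7b2, Cox8b, Cox8c, Ndufa4l2, Ndufaf5 and Ndufaf6. Of these, Cox6a2, Cox7a1 and Cox8b are isoforms known from heart and skeletal muscle, and Cox6b2, Cox7b2 and Cox8c are known from testis.

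The first comparison asked whether the respiratory genes differed between 46 h and 22 h, times that lie 24 h apart. Of the 89 members, 8 passed the test (limma, Benjamini-Hochberg adjusted p under 0.05 over all genes), 4 higher and 4 lower at 46 h, which is 8.99% of the members, against 21.2% of all genes (11.5% higher and 9.73% lower). Among genes at or above the median level, where the share called was 35.7%, the same test called 11 members. The members' median change was -0.005 log2 and all genes' was 0.029. Member changes ran between -0.27 and 0.35, whereas all genes ran between -1.91 and 1.8. The 95% interval of the change lay wholly within 0.25 log2 (a fold of 1.19) of no change for 51 members (57.3%), against 43.9% of all genes, and the median SE was 0.071 for the members and 0.072 for all genes.

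Calls by role stand against 21.2% of all genes called, and 35.7% among genes at or above the median level. Most roles hold too few genes for a count to be set apart from these shares. Of ATP synthase subunits, 0 of 17 passed the limma test, with 1 at an unadjusted p under 0.05, and the interval of 13 of them lay within 0.25 log2 of no change. In complex II 0 of 4 and in complex III 0 of 8 passed, both with 0 at an unadjusted p under 0.05, and in the complex I core 0 of 6 passed, with 2 at an unadjusted p under 0.05. Complex I accessory subunits gave 2 higher and 1 lower of 28, and complex IV gave 2 higher and 0 lower of 18. Of the 7 assembly factors 3 were lower and 0 higher, with a median change of -0.176; with each array's score along the largest within-time component as a covariate, an alternative added after seeing the data, 2 were lower, Ndufaf1 was higher and the median was -0.072. No test compared one role with another.

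**Figure D1:**
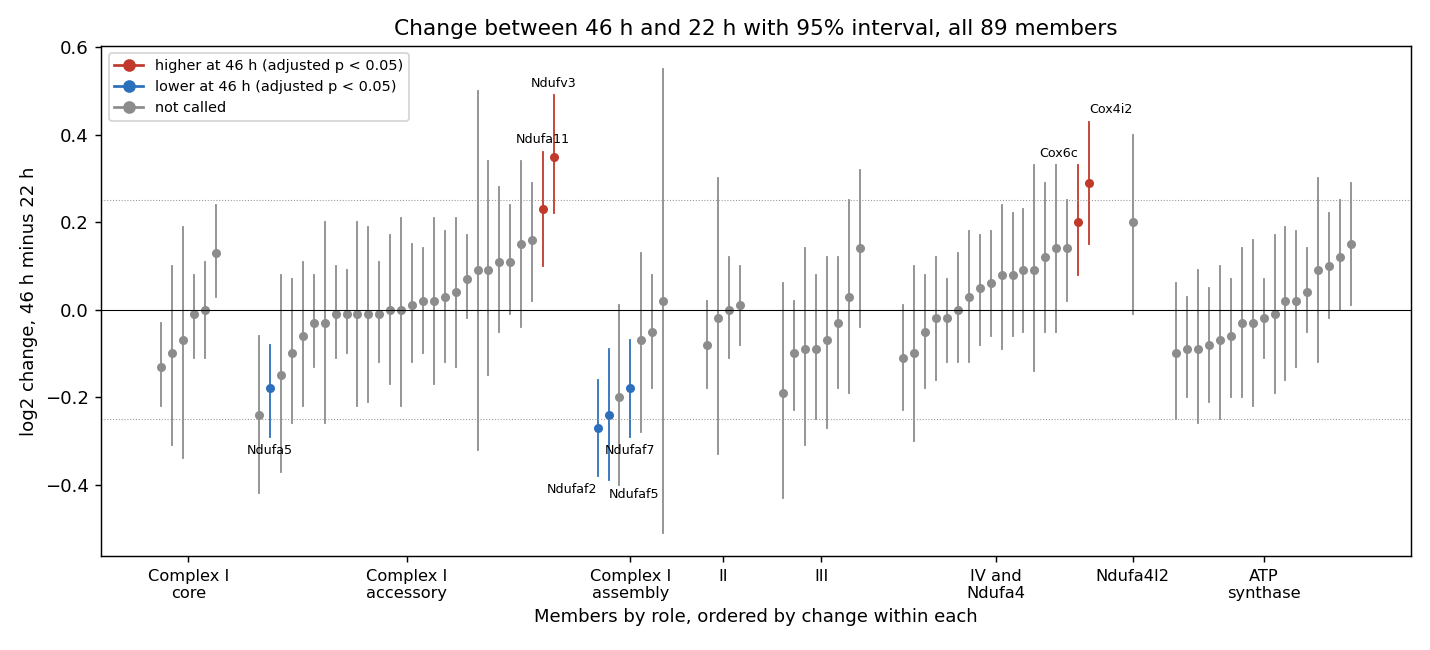
Log2 change between 46 h and 22 h (vertical axis) of each of the 89 members, grouped by role along the horizontal axis and ordered by change within each role. Points are limma estimates from 3 arrays a time, lines are 95% intervals, and dotted lines mark 0.25 log2 either side of no change. The 4 members higher at 46 h (red) are subunits, and 3 of the 4 lower ones (blue) are Ndufaf assembly factors.

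The largest rise at 46 h belonged to Ndufv3, an accessory subunit of the complex I module that oxidizes NADH. Its level was 9.79, 10.03 and 9.93 on the 46 h arrays, against 9.53, 9.63 and 9.52 on the 22 h arrays. The times did not overlap, and the change was 0.35 ± 0.06 (SE, n = 3 arrays each; adjusted p = 0.000606, limma). Its means over the 6 times were 9.56, 9.71, 9.71, 9.83, 9.93 and 9.91, so that the 22 h arrays were below all others.

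Cox4i2 encodes the isoform of complex IV subunit 4 known from lung and from cells in low oxygen. It measured 8.78, 8.89 and 8.81 at 46 h, against 8.47, 8.59 and 8.56 at 22 h. The groups did not overlap, and the change was 0.29 ± 0.07 (SE, n = 3 each; adjusted p = 0.00476, limma). Its means in time order were 8.54, 8.56, 8.56, 8.75, 8.89 and 8.83, with every array of the last 3 times above every array of the first 3. The other isoform, Cox4i1, which most tissues use, measured 10.38, 10.69 and 10.41 at 46 h, against 10.30, 10.57 and 10.33 at 22 h, with overlap. It had a change of 0.09 with a 95% interval of -0.14 to 0.33 and did not pass the test (adjusted p = 0.604, limma). Whether the isoforms differ from each other in this change was not tested.

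Ndufa11, an accessory subunit in the membrane arm of complex I, had levels of 10.45, 10.58 and 10.46 at 46 h, against 10.23, 10.32 and 10.25 at 22 h. Cox6c, a small nuclear subunit of complex IV, had 13.12, 13.12 and 13.07 at 46 h, against 12.89, 12.93 and 12.88 at 22 h. Neither gene's groups overlapped. Ndufa11 changed by 0.23 ± 0.06 (adjusted p = 0.0137, limma) and Cox6c by 0.20 ± 0.06 (SE, n = 3 each; adjusted p = 0.0216, limma). With arrays scaled to a common median in place of quantile normalization, both fell short of the threshold, with adjusted p = 0.0974 and 0.263. Each gene has a second, dimmer probe set that did not pass when probe sets were tested on their own: its change was 0.16 for Ndufa11 (adjusted p = 0.145) and 0.15 for Cox6c (adjusted p = 0.0522, limma).

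Ndufaf2, a chaperone of late complex I assembly, showed the largest fall. It measured 8.60, 8.68 and 8.67 at 46 h, against 8.93, 8.87 and 8.96 at 22 h, with no overlap, and changed by -0.27 ± 0.05 (SE, n = 3 each; adjusted p = 0.00163, limma). Its mean was 8.92, 8.83, 8.78, 8.79, 8.68 and 8.65 from the first time to the last.

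Ndufaf5 and Ndufaf7 modify core complex I subunits during assembly in human cells. Ndufaf5 had levels of 7.66, 7.60 and 7.60 at 46 h, against 7.92, 7.74 and 7.92 at 22 h, and its change was -0.24 ± 0.07 (SE, n = 3 each; adjusted p = 0.0249, limma). Ndufaf7 had 8.32, 8.32 and 8.24 at 46 h, against 8.49, 8.42 and 8.50 at 22 h, and its change was -0.18 ± 0.05 (adjusted p = 0.0229, limma). All 46 h arrays of both genes lay below all 22 h arrays. The remaining assembly factors did not pass: Ndufaf6 had a change of -0.20 (adjusted p = 0.163), Ndufaf4 -0.07, Ndufaf3 -0.05 and Ndufaf1 0.02.

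The 1 subunit lower at 46 h was Ndufa5, an accessory subunit of the peripheral arm of complex I. It measured 8.50, 8.64 and 8.57 at 46 h, against 8.76, 8.74 and 8.76 at 22 h, without overlap, and changed by -0.18 ± 0.05 (SE, n = 3 each; adjusted p = 0.0144, limma). Ndufv3, Cox4i2 and Ndufaf2 passed under all 28 alternative settings that were followed gene by gene, which kept the threshold of 0.05.

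**Figure D2:**
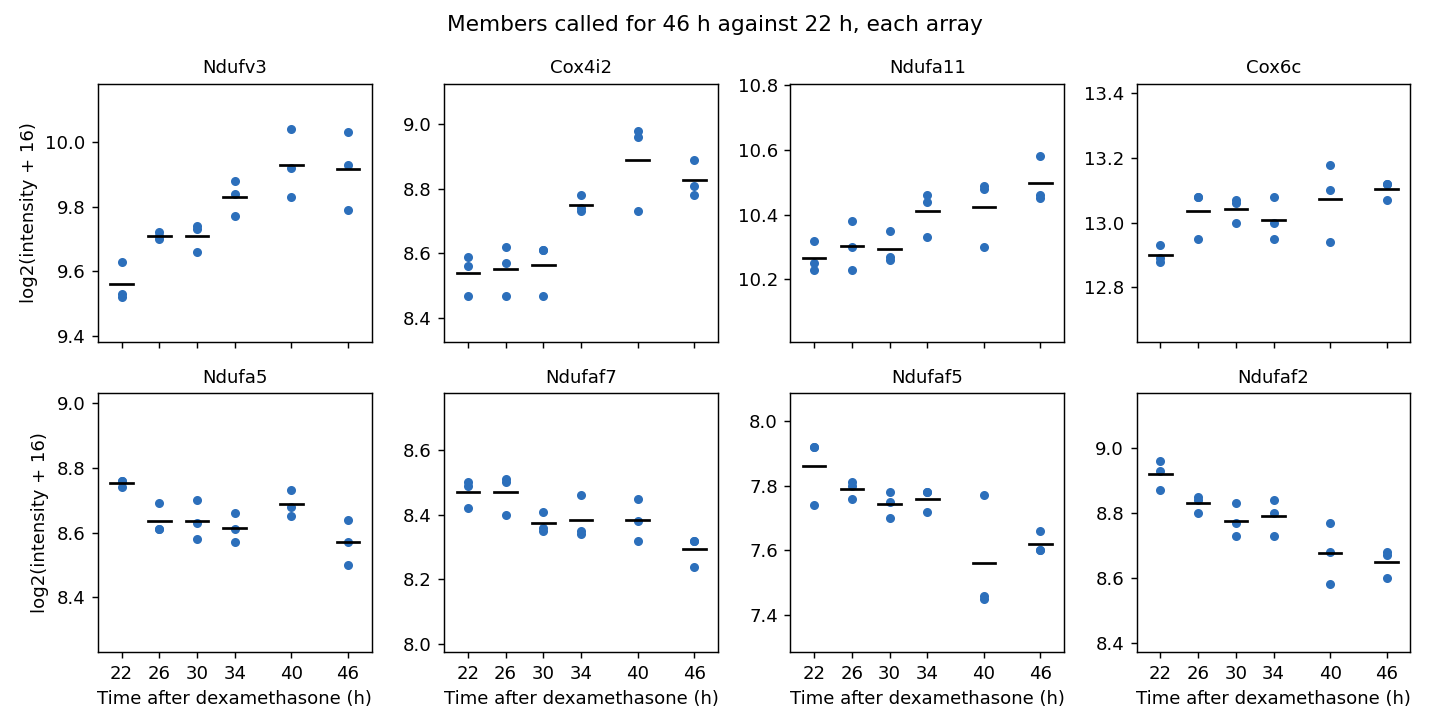
Level as log2(intensity + 16) (vertical axis) on each array (points) and its mean (bars) at each time after dexamethasone (horizontal axis, h) for the 8 members called between 46 h and 22 h; every panel spans 0.8 log2. The 46 h points of each gene do not overlap its 22 h points, which also holds for some members that were not called, such as Atp5g3 and Sdhb.

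The count of calls depended on single arrays and on the scaling. It was 4 without the third 22 h array, 5 without the first 22 h array and 5 without the second 46 h array; without the second 22 h array it was 11. With arrays shifted to a common median, 14 members passed, 2 higher and 12 lower. With the values as deposited 12 passed, 5 higher and 7 lower. Neither of these scalings kept the even split. The calls over all 19938 genes moved as well. They were 2295 higher and 1939 lower after quantile normalization, 1848 and 3275 under the common median, and 3863 and 2180 as deposited. Before normalization the upper quartile of log2 intensity was 9.43 to 9.45 on the 46 h arrays, against 9.47 to 9.50 on the 22 h arrays. The members' median change was -0.093 under the common median, where that of all genes was -0.006. In counts added after seeing the data, the 3 assembly factors called lower numbered 2 with the values as deposited and 1 without the first 22 h, the third 22 h or the third 46 h array.

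Between 40 h and 22 h, 15 members passed the test, 16.9% against 21.4% of all genes (12.3% higher and 9.15% lower). This comparison uses the same 22 h arrays as the one above. The 11 higher members were all subunits, and the 4 lower ones were all assembly factors. Among subunits the largest changes after Ndufv3 (0.37) and Cox4i2 (0.35) were those of the accessory complex I subunits Ndufa6 and Ndufa7 (both 0.27), of Uqcrh, the hinge protein of complex III (0.27), and of Atp5k, which encodes subunit e of ATP synthase (0.26). The others were Atp5g3 and Atp5mpl (both 0.23), Cox7a2l (0.22), Ndufa3 (0.21) and Cox6c (0.17).

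Ndufa6 measured 10.80, 10.64 and 10.65 at 40 h, against 10.39, 10.44 and 10.44 at 22 h, and Atp5k measured 8.92, 9.08 and 9.09 at 40 h, against 8.83, 8.82 and 8.67 at 22 h. Neither gene's arrays overlapped between the times (Ndufa6 adjusted p = 0.00375, Atp5k adjusted p = 0.00584, limma). Uqcrh had 11.40, 11.39 and 11.62 at 40 h, against 11.09, 11.29 and 11.21 at 22 h, likewise without overlap (adjusted p = 0.0305, limma).

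The 4 assembly factors lower at 40 h were Ndufaf5 (-0.30), Ndufaf4 (-0.29), Ndufaf6 (-0.27) and Ndufaf2 (-0.24). Ndufaf5 measured 7.45, 7.77 and 7.46 at 40 h, against 7.92, 7.74 and 7.92 at 22 h, and Ndufaf6 measured 7.48, 7.78 and 7.48 at 40 h, against 7.99, 7.62 and 7.95 at 22 h. Both genes overlapped between the times, and the second array of each time lay apart from the other 2. Ndufaf2 had 8.58, 8.68 and 8.77 at 40 h, all below its 22 h levels. The number of assembly factors lower was 2 without the first or the third 22 h array, or without the first 40 h array.

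For all members the 40 h count was 7 without the first 22 h array, 8 without the third, 9 without the first 40 h array and 8 without the third, and 17 without the second array of either time. With arrays shifted to a common median 14 members passed, 3 higher and 11 lower, and with the values as deposited 8 were higher and 4 lower. The direction of the subunits thus turned with the scaling, as did that of all genes. The subunits' median change was 0.055 after quantile normalization and -0.018 after the shift. Their calls were 11 higher and 0 lower, against 3 higher and 6 lower. For all 19938 genes the medians were 0.038 and -0.002. Their calls were 2445 higher and 1825 lower, against 2226 higher and 3578 lower.

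The second arrays of 22 h and 40 h also stood apart in other members. Ndufaf1, part of an early complex I assembly intermediate, measured 9.14, 9.87 and 9.32 at 40 h, against 9.98, 9.15 and 9.87 at 22 h, a spread between arrays of one time (pooled SD 0.364 log2) above that of any other member. At 46 h it had 9.94, 9.23 and 9.89. Ndufb6, an accessory subunit of the membrane arm of complex I, had a pooled SD of 0.280. That of Sdhd, a membrane anchor of complex II, was 0.212, and that of Ndufs1, an iron-sulphur core subunit of complex I, was 0.175. Over all members the median SD was 0.089, against 0.090 for all genes.

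These members moved along the component that holds 33.8% of the within-time variance. Across the 18 arrays, after removal of the time means, the correlation with that component was -0.98 for Ndufaf1 and Ndufs1, -0.96 for Ndufb6 and -0.94 for Sdhd, and 0.95 for Cox4i1, Atp5g2 and Ndufa8. Correlations above 0.5 were found for 35 of 81 subunits (43.2%) and 0 of 7 assembly factors, against 24.7% of all genes. Correlations below -0.5 were found for 17 of the subunits (21%) and 4 of the assembly factors (57.1%), against 19.5% of all genes. All these genes share the arrays, so the correlations are descriptions of them. Among members called at 46 h, the correlation was 0.87 for Ndufa11, -0.66 for Ndufaf5, 0.06 for Ndufaf2 and -0.08 for Ndufaf7.

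**Figure D3:**
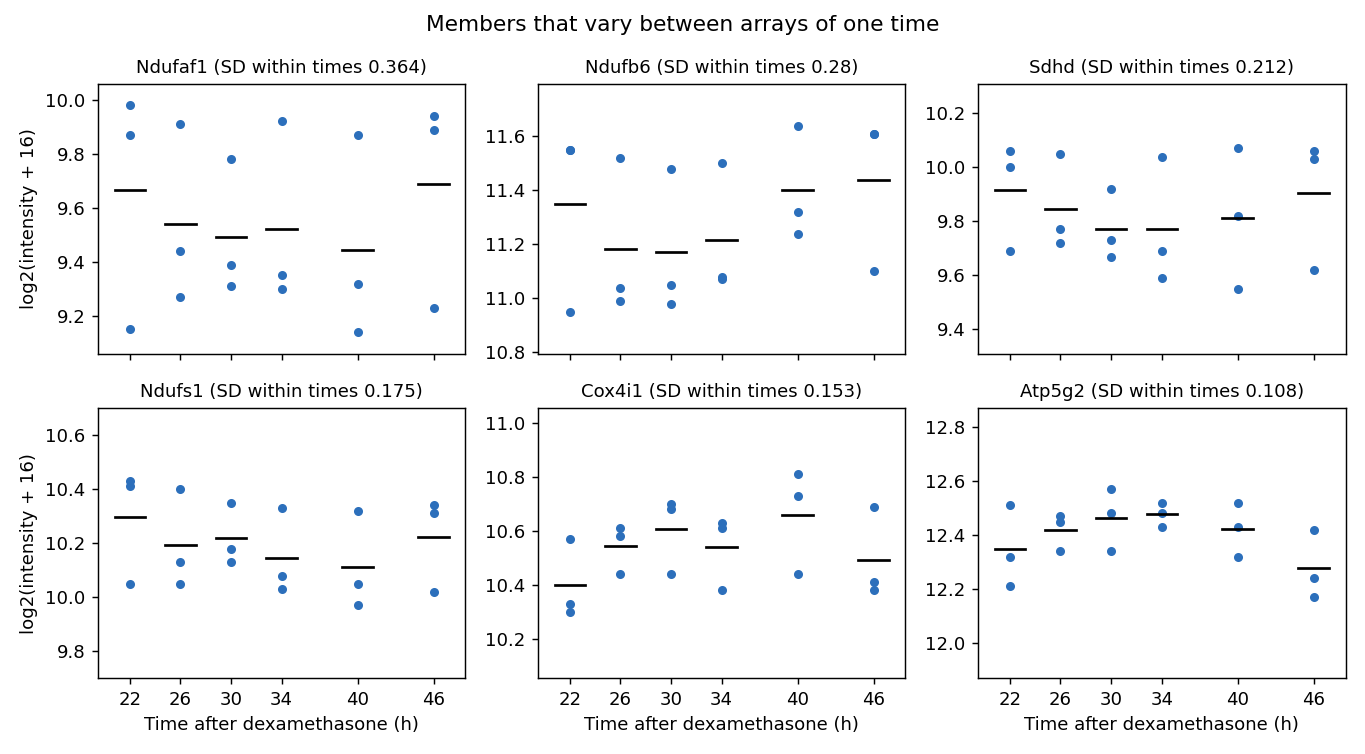
Level as log2(intensity + 16) (vertical axis) on each array (points) with time means (bars) against time after dexamethasone (horizontal axis, h) for 4 members that correlate negatively and 2 (Cox4i1, Atp5g2) that correlate positively with the largest within-time component; every panel spans 1 log2 unit. For Ndufaf1, 1 array of each time stands apart from the other 2.

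Each array's score along that component, with loadings from genes outside the membership and scaled to 1 SD over arrays, averaged 0.74 at 40 h and 0.17 at 46 h, against -0.98 at 22 h. The score thus moves with the time groups. With the score as a covariate, an alternative added after seeing the data, 7 of the 8 members called for 46 h kept their call, with Ndufaf5 at adjusted p = 0.0547, and 17 others passed (10 higher and 14 lower in all). For 40 h, 6 of 15 kept theirs: Ndufv3, Cox4i2, Ndufa6, Atp5k, Atp5mpl and Ndufaf2. Another 9 passed for 40 h (12 higher and 3 lower in all). Of all 19938 genes, the covariate fit called 2631 higher and 2432 lower for 46 h. For 40 h it called 1660 higher and 1676 lower. With the covariate Ndufaf1 was higher at 46 h (0.43, adjusted p = 0.000182) and at 40 h (0.39, adjusted p = 0.00161, limma). Ndufaf2 and Ndufaf7 were lower at 46 h, and Ndufaf2 was the 1 assembly factor lower at 40 h. The median over the 7 assembly factors at 40 h was -0.079 with the covariate and -0.242 without it. A covariate that follows time also takes out differences between times, and its part in the results beyond these counts was not tested.

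**Figure D4:**
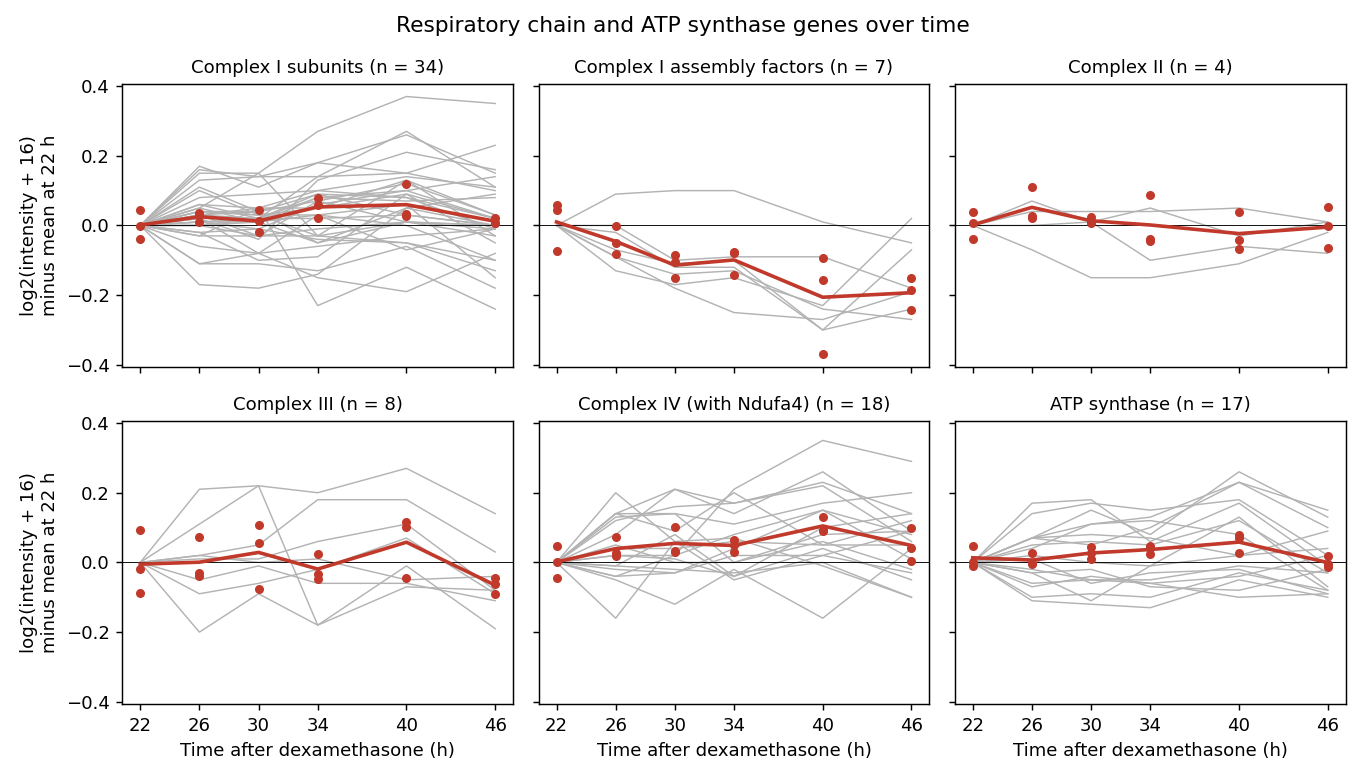
Change from the 22 h mean in log2(intensity + 16) (vertical axis) against time after dexamethasone (horizontal axis, h). Grey lines are the means of single members, red points are the median over the members on each array, and red lines join the means of these medians. The means of the subunit medians stay between -0.065 and 0.105 log2, and the assembly factor median averages -0.206 at 40 h and -0.193 at 46 h.

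Earlier times differed less from 22 h. At 34 h 1 member passed, Ndufv3 (0.27 ± 0.06, SE, n = 3 arrays each; adjusted p = 0.0113, limma), with 9.44% of all genes called. The count was 0 without the first or the third 22 h array and 6 without the second, 2 without the third 34 h array, and 3, 4 and 2 without the first, the second and the third 40 h array. Among genes at or above the median level, 4 members passed, with 20.3% of such genes called. At 30 h 0 members passed limma's test, with 9 at an unadjusted p under 0.05, and 4.69% of all genes were called; 2 passed without the second 22 h array. At 26 h 0 passed, with 8 at an unadjusted p under 0.05, and 2.19% of all genes were called. Relative to each gene's 22 h mean, the assembly factors had medians of -0.046, -0.114 and -0.099 at 26, 30 and 34 h.

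Over all 6 times, the F test called 6 members (6.74%, against 19.8% of all genes): Cox4i2 (adjusted p = 0.0017), Ndufv3 (0.00235), Ndufaf2 (0.0121), Ndufaf5 (0.0373), Ndufa3 (0.0422) and Ndufa6 (0.0468). Cox4i2, Ndufv3 and Ndufaf2 passed it under all 28 alternatives that were followed gene by gene, which kept the threshold of 0.05. At a threshold of 0.01 Ndufaf2 did not pass. Ndufaf5 did not pass in 16 of 27 alternatives at 0.05, with adjusted p up to 0.112. The count was 3 without the first or the third 22 h, the third 26 h, the first or the second 30 h, the second 34 h or any 46 h array, and 10 without the second 40 h array. Among genes at or above the median level it was 11, with 31.9% of such genes called. Of the 89 members, 31 (34.8%) had their highest mean at 40 h, against 22.7% of all genes. At 22 h 26 members (29.2%) had their lowest mean, against 30.9% of all genes, and at 46 h 25 (28.1%) did, against 18.9%. These shares were not tested.

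A 24 h cosine, the test for a daily rhythm, called 0 members in limma, with 10 (11.2%) at an unadjusted p under 0.05, against 0.828% of all genes called and 21.3% of all genes at an unadjusted p under 0.05. Cox4i2 came nearest, with an amplitude of 0.18 ± 0.04 log2 (SE, n = 18 arrays; adjusted p = 0.0756) and a fitted peak at 39.4 h. Without the first 22 h, the second 40 h or the second 46 h array 1 member passed. The median amplitude was 0.05 for the members and 0.06 for all genes. Setting 34 h against 22 h and 46 h averaged also called 0 members, with 4 at an unadjusted p under 0.05, where 0.135% of all genes were called. The sampling spans 1 cycle, so repetition cannot be seen.

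Tissue isoforms showed no call at 46 h apart from Cox4i2. The muscle isoforms had changes of 0.08 (Cox6a2), 0.12 (Cox7a1) and 0.03 (Cox8b), with all-array means of 7.75, 7.76 and 6.96. The testis isoforms had 0.08 (Cox8c), 0.14 (Cox7b2) and -0.10 (Cox6b2). Their widely expressed counterparts Cox6a1, Cox6b1, Cox7a2, Cox7b and Cox8a had changes of 0.14, -0.02, -0.11, 0.09 and 0.05, and Cox7a2l, a Cox7a relative that acts in supercomplexes, had 0.06. Ndufa4 had -0.05. Ndufa4l2, known as a hypoxia-induced paralog of Ndufa4, had 6.70, 6.76 and 6.67 at 46 h, against 6.50, 6.47 and 6.57 at 22 h, which did not overlap but did not pass (adjusted p = 0.167, limma).

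Atp5g1, Atp5g2 and Atp5g3 encode the same mature c subunit of the ATP synthase rotor with different import signals. Their changes at 46 h were -0.09, -0.07 and 0.15, none called, and at 40 h Atp5g3 alone of the 3 passed (0.23, adjusted p = 0.019, limma). Atp5g3 measured 11.33, 11.20 and 11.36 at 40 h, against 10.99, 11.16 and 11.04 at 22 h, without overlap. Of the 17 members with more than 1 probe set, 3 (Atp5md, Cox7a2l and Ndufb11) had probe sets whose changes at 46 h differed in sign, by at most 0.12 log2.

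Promoters were searched for sites of factors known to act on respiratory genes, because called members moved both ways. RefSeq promoter windows of build GRCm38.p6, running from 250 bases before to 50 after the start, were given for 73 members and for 15614 of the genes tested, and the first listed window of a gene was searched. The NRF1 site GCGCATGCG, searched on both strands, was in 10 member windows (13.7%) and in 2.62% of the windows of tested genes, and the ETS site CCGGAAG, to which GABP binds, was in 17 (23.3%) and 12.5%. The YY1 site AAGATGGCG was in 6 (8.22%), against 2.11%, and the E-box CACGTG, which clock factors bind, in 6 (8.22%), against 8.38%. Among the 6 called members with a window, Ndufa11, which was higher at 46 h, and Ndufaf5, which was lower, held the NRF1 site. Both windows are printed here with the site in capitals, where its match on each strand overlaps that on the other to give 1 run of 10 bases. Ndufa11 lies at chr17:56717512-56717811 on the plus strand and Ndufaf5 at chr2:140170396-140170695 on the plus strand.
Ndufa11: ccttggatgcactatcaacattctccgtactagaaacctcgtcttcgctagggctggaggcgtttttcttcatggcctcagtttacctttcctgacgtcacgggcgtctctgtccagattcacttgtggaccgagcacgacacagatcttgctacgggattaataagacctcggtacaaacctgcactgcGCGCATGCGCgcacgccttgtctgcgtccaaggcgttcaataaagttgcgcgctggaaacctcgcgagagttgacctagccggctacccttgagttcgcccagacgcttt
Ndufaf5: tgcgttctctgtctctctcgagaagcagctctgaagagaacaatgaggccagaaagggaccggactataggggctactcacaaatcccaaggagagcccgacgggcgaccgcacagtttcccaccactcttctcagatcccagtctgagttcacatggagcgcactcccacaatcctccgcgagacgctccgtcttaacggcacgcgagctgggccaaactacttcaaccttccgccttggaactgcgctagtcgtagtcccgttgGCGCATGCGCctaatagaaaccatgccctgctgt
The Ndufa11 match begins 60 bases before the start and the Ndufaf5 match at base 17 after it. None of the 4 motifs was in the windows of Ndufv3, Ndufaf2, Ndufaf7 and Ndufa5, which draws nothing about the factors.

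Other genes of energy metabolism were set beside the members for 46 h against 22 h. There 21.2% of all genes were called, and 35.7% of genes at or above the median level. Regulators of mitochondrial biogenesis gave 5 lower and 1 higher of 14 measured, of which 2 lay below the median level. Nrf1, the factor named above, changed by -0.32 ± 0.06 (adjusted p = 0.00144), Tfam, which packages and transcribes mitochondrial DNA, by -0.33 ± 0.07 (adjusted p = 0.00339) and Gabpa, the DNA-binding subunit of GABP, by -0.28 ± 0.07 (SE, n = 3 each; adjusted p = 0.00874, limma). The 1 higher was Ppargc1b, a coactivator of mitochondrial genes (0.22, adjusted p = 0.00516).

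Glycolysis genes were lower in 11 of 13, with 0 higher and a median change of -0.38. Pgk1, a kinase that makes ATP, changed by -0.59 ± 0.07 (adjusted p = 2.14e-05, limma), Slc2a1, the glucose transporter, by -0.40, Pgam1 by -0.33 and Pfkl, a phosphofructokinase, by -0.67. The count of 11 lower was the same under quantile normalization, the common median, the values as deposited and the component covariate. The difference between glycolysis and the respiratory genes was not tested.

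The counts that follow stand against 21.2% of all genes called, and 35.7% among genes at or above the median level. Citrate cycle and pyruvate dehydrogenase genes gave 2 lower (Suclg2, -0.34, and Idh3g, -0.16) and 1 higher (Ogdh, 0.15) of 16. Electron carriers and coenzyme Q synthesis gave 3 lower (Coq6, -0.31, Coq7, -0.26, and Coq2, -0.21) and 1 higher (Coq10a, 0.32) of 14. Among complex IV assembly genes, 2 were lower (Sco1, -0.32, and Cox17, -0.28, both of copper delivery) and 1 higher (Cox14, 0.16) of 17. Of complex I assembly factors outside the Ndufaf family 0 of 7 passed, and of complex II assembly genes 0 of 4. Ttc19 (0.21) was higher of 7 complex III genes and Atpif1, the inhibitor of ATP synthase (0.17), of 4 ATP synthase assembly and inhibitor genes.

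Of the mitochondrially encoded subunits, 2 were measured by single-symbol probe sets, and both were higher at 46 h: ND3 of complex I by 0.23 ± 0.05 (adjusted p = 0.00569) and COX2 of complex IV by 0.17 ± 0.04 (SE, n = 3 each; adjusted p = 0.0114, limma). Under the common median 0 of the 2 passed.

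Some cell type markers differed between the same times, for which 21.2% of all genes were called. Fibroblast markers gave 5 higher (Col1a1, Col1a2, Col3a1, Pdgfra and Pdgfrb) and 1 lower (S100a4) of 12, and the log2 of their summed intensity was 16.11 to 16.13 at 46 h, against 15.91 to 15.99 at 22 h. Skeletal muscle markers gave 2 higher (Ckm, 0.28, and Myod1, 0.16) of 8, with summed levels of 10.93 to 10.98 at 46 h, against 10.77 to 10.87 at 22 h. Both genes lay below the median level of all genes. With the component score as a covariate 0 of the 8 passed, while the fibroblast and epithelial counts were the same. Epithelial markers gave 2 lower (Krt19, -0.93, and Krt8, -0.28) of 5, with sums of 9.39 to 9.48 at 46 h, against 9.73 to 9.79 at 22 h. Cardiac, adipocyte, macrophage, germ cell and endothelial markers gave 0 calls in limma. At 40 h, 4 fibroblast, 3 skeletal muscle and 2 macrophage markers were higher than at 22 h, and 1 epithelial marker was lower, with 21.4% of all genes called. The part of these differences in the members' changes was not tested.

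**Figure D5:**
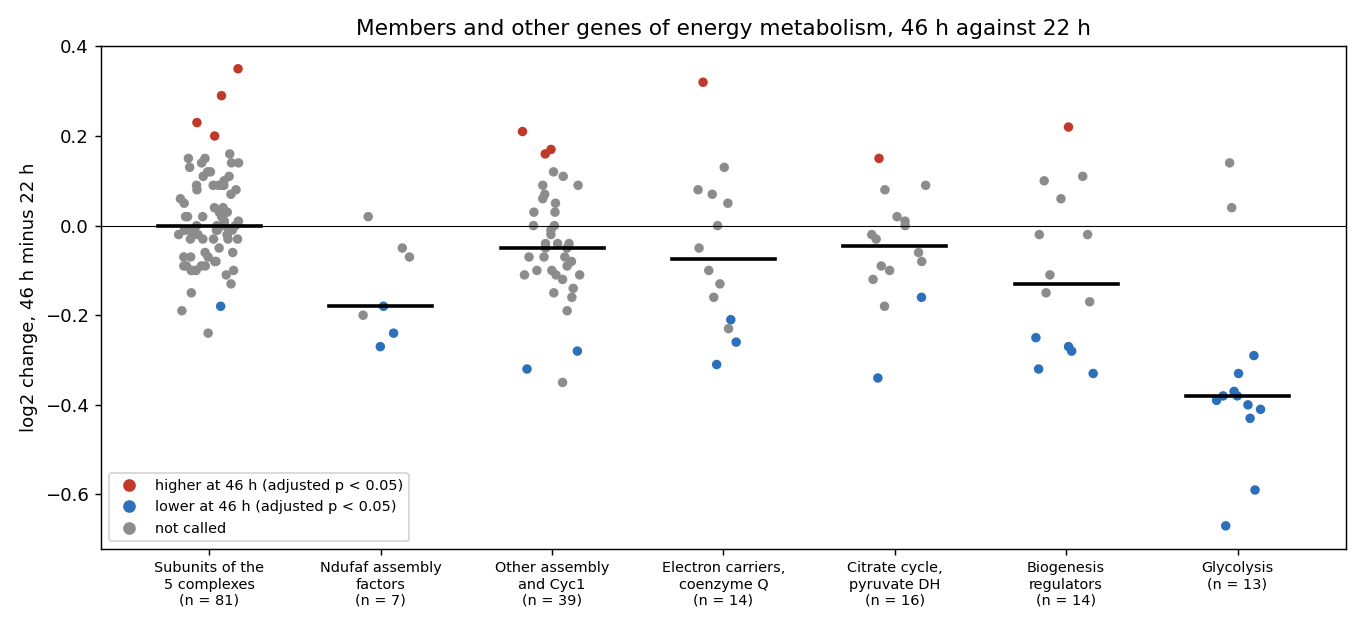
Log2 change between 46 h and 22 h (vertical axis) of single genes (points, spread sideways for sight) in the member groups and in other lists of energy metabolism (horizontal axis); bars are list medians. The 81 subunits centre on 0, and 11 of 13 glycolysis genes are called lower.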

How the data were processed

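RNA of 18 samples was measured on 1 Affymetrix array each. Each probe set has 1 deposited intensity, not on a log scale. The submitters' processing notes name Affymetrix Expression Console 1.1 and PLIER 2.0, without settings; whether arrays were normalized is not stated there. Of 35556 probe sets, 21789 had 1 symbol in the platform annotation, giving 19938 genes by the highest mean; 6 probe sets with several symbols that include a member (Cox7c, Ndufb4, Ndufb4b and Ndufs5-ps among them) were not used. All 89 members matched the RefSeq table by gene identifier.

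From the deposited intensities, log2(value + 16) was taken, which understates changes of dim genes, and arrays were quantile normalized. R 4.3.3 with limma 3.58.1 (lmFit, eBayes) fitted the 6 time means to all 18 arrays, and separately a 24 h cosine. P-values were adjusted by Benjamini-Hochberg over all genes at 0.05. The fits were tested on simulated data. Probes of subunits with processed pseudogenes may also read those copies.

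Members and lists were chosen with earlier results of these data known. Any member could be named. Called members at 46 h (up to 12, by size) have per-array values; isoform groups were to have them too, and here most have changes only. Other lists name up to 4 called genes with the smallest p, and marker lists all called genes. Per-array values at 40 h and of widely varying members were chosen after their values were seen. Alternatives covered scaling, the constant, a filter on dim genes, probe set choice, replicate block, array weights, variance model and threshold. They also covered the period of the cosine, a linear term in time beside it, the compared times alone and each array left out. Single probe sets and the component score were added after seeing the data.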

Additional observations from a re-analysis of the deposited data

How the results depend on the processing

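No called member changed sign for 46 h against 22 h under the alternatives tried. Medians of the members near 0 did change sign with the scaling. At 40 h the members' median was 0.047, and -0.025 under the common median, against 0.038 and -0.002 for all genes. Between 46 h and 22 h the main count was 8 members; it was 14 with arrays shifted to a common median, 24 with array weights, 24 with the component score as a covariate, 5 over subunits only and 3 at a threshold of 0.01. Of all 19938 genes, the common median called 1848 higher and 3275 lower, and the covariate 2631 higher and 2432 lower. Leaving out 1 array at a time gave 4 to 11 members. The median change of the members moved to -0.093 under the common median and was -0.008 to 0.008 with 1 array left out. Between 40 h and 22 h (15 members) the count was 32 with array weights, 7 at 0.01 and 3 in the arrays of those times alone, where fewer arrays estimate the spread; it was 7 to 17 with 1 array left out. Between 34 h and 22 h (1 member) it was 3 with the values as deposited, under the common median, with a constant of 64 and with trend and robust variance, 4 among brighter genes, 4 with the covariate, 25 with array weights, 0 at 0.01, and 0 to 6 with 1 array left out. The median change there (0.026) turned to -0.01 as deposited, -0.011 under the common median, and 0.002 to 0.051 with 1 array left out. For 30 h the count was 26 with array weights and 0 to 2 with 1 array left out, for 26 h it was 12 with array weights, and for 34 h against 22 h and 46 h averaged it was 1 with array weights. The F test (6 members) gave 10 as deposited, 12 under the common median, 12 with a constant of 64, 11 among brighter genes, 11 with trend and robust variance, 36 with array weights, 15 with the covariate, 2 at 0.01, and 3 to 10 with 1 array left out. The cosine gave 1 under the common median, 2 with array weights, 3 with a period of 26 h and 0 to 1 with 1 array left out. For most of these settings the share of all genes called is not given here. Such counts therefore do not set the members apart from other genes. The cause of the differences between settings was not tested.

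With array weights 44.1% of all genes were called between 46 h and 22 h, so the members' 24 stands against a higher background. Single members lost calls at 46 h in some settings: Cox6c in 5, Ndufaf5 in 6, Ndufa11 and Ndufaf7 in 3 each and Ndufa5 in 2. With the replicate block the counts were 8 at 46 h, 11 at 40 h and 3 for the F test, and 2 assembly factors were lower at 40 h. Replicate numbers did not pair the arrays: of 45 same-numbered pairs, 15 had correlated deviations over 0.1 (median r = -0.10), and 3 of 18 arrays correlated best with their own number. Signal over background limits the dim isoforms, and 3 arrays a time limit changes under about 0.25 log2.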

Other observations

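At 40 h, other genes of energy metabolism gave these counts against 22 h: glycolysis 9 lower and 0 higher of 13, biogenesis regulators 5 lower (Nrf1, Gabpa, Tfam, Tfb1m and Tfb2m) and 1 higher (Ppargc1b) of 14, citrate cycle and pyruvate dehydrogenase 0 of 16, and complex I assembly factors outside the Ndufaf family 2 lower of 7. Between these times 21.4% of all genes were called. Of the biogenesis regulators, Tfb1m changed by -0.34 (adjusted p = 0.016) and Tfb2m by -0.31 (adjusted p = 0.0139), both from limma.

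Members nearest to the threshold between 46 h and 22 h were picked after their values were seen. Ndufv1, the core subunit that binds NADH, had a change of -0.13 (adjusted p = 0.0502), and Ndufb2, an accessory subunit, had -0.24 (adjusted p = 0.0537), both from limma and neither called.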
